A study of Mus musculus with 9 samples.

Results

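The 34 genes described here are targets of the transcription factor ATF4 and cytosolic aminoacyl-tRNA synthetases. They were chosen as a list of integrated stress response, serine pathway, amino acid transport and tRNA synthetase genes. All 34 had a row in the count table, of 12125 genes in all, and all 34 entered the tests. In 4 roles, they comprised 7 regulators and stress effectors, 6 amino acid transporters, 9 enzymes of amino acid and one-carbon synthesis, and 12 cytosolic aminoacyl-tRNA synthetases.

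RNA was sequenced from TC2R cells, derived from the mouse prostate adenocarcinoma line TRAMP-C2 (C57/BL6 background) with lentivirus carrying activated H-ras and another added gene. The IL27_pepL group (3 libraries) received a plasmid encoding interleukin-27 with a C-terminal peptide, pepL, directed at the interleukin-6 receptor alpha chain. The IL27_scr group (3 libraries) received interleukin-27 with a non-specific C-terminal peptide, and the plasmid control group (3 libraries) received empty pcDNA3.1. Every group was given 1.5 µg of plasmid with 2 µL of Lipofectamine 2000 for 6 h and collected 24 h after the start, so all 9 libraries came from transfected cells and no untransfected cells are described here. The labels describe 1 cell line and do not say that the 3 libraries of a group came from separate cultures, so p-values measure only the spread between these libraries, which may be technical.

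Each library held 30013229 to 34164353 reads on genes in IL27_pepL cells, 30087806 to 35959983 in IL27_scr cells and 27609884 to 35078027 in plasmid control cells. The 34 genes took 1.27% to 1.33% of the reads in IL27_pepL libraries, 1.37% to 1.45% in IL27_scr libraries and 1.30% to 1.45% in plasmid control libraries. The least covered was Pycr1, with 1003 to 1108 reads in IL27_pepL libraries, 982 to 1276 in IL27_scr libraries and 814 to 1156 in plasmid control libraries. For the labelled cell type, 3 of 7 epithelial markers had a row, at 0.557 to 5.82 CPM on average in IL27_pepL cells, 0.607 to 4.60 CPM in IL27_scr cells and 0.636 to 4.72 CPM in plasmid control cells. Pbsn, Tmprss2 and Hoxb13, which mark prostate luminal cells, had no row in the table used here. All 5 mesenchymal markers had one, at 70.6 to 3155 CPM in IL27_pepL cells, 73.4 to 2841 CPM in IL27_scr cells and 76.8 to 2801 CPM in plasmid control cells. Ribosomal RNA reads assigned to Rn45s made up 0.286% to 0.474% of counts in IL27_pepL libraries, 0.313% to 0.405% in IL27_scr libraries and 1.21% to 1.49% in plasmid control libraries.

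The integrated stress response starts when kinases that sense amino acid shortage, endoplasmic reticulum stress, heme loss or double-stranded RNA phosphorylate the translation initiation factor eIF2 on its alpha subunit. General translation then slows while the mRNA of ATF4 is translated more, and ATF4 with its C/EBP partners switches on genes for amino acid uptake, amino acid synthesis and tRNA charging. ATF4 is thus controlled in large part at the level of translation, which mRNA counts do not measure. Tumour cells use the same genes to feed protein, nucleotide and glutathione synthesis.

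ATF4 binds with C/EBP proteins to a composite element whose core can be written TGATGNAA (TTNCATCA on the opposite strand). Promoter windows of 300 bases, 250 before and 50 after the annotated start, were read from RefSeq (GRCm38.p6) for 27 of the 34 genes. Slc7a5, Slc1a5, Cth, Cars, Lars, Nars and Wars had no entry. The 8 letters were found on either strand in 12 of 30 promoters of these 27 genes (40.0%), against 263 of 11860 promoters (2.22%) of all genes with a row and 1304 of 32851 promoters (3.97%) in the whole table. A second motif, the cyclic AMP response element TGACGTCA, which shares no complete site with the first, was in 1 of the 27 genes (3.70%, Ppp1r15a) and in 343 of 9262 genes with a row and an entry (3.70%). Some of these genes were assigned to ATF4 through such elements, so the share describes the list and is not separate evidence. The stretches below each hold a match wholly before the start and are printed to show what the element looks like in the genes whose values follow. They run 5′ to 3′ along the gene's own strand, end before the RefSeq start and carry the match in capitals. Those of Asns, Vldlr and Tars lie partly or wholly inside the gene as GENCODE annotates it, from a start further upstream, and are kept to 30 bases at most.
Slc7a11, chr3:50443623-50443709 (-): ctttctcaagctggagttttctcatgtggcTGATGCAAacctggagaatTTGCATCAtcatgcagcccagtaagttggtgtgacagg
Asns, chr6:7693214-7693243 (-): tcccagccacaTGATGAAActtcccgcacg
Vldlr, chr19:27216809-27216838 (+): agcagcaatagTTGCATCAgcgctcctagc
Chac1, chr2:119351019-119351086 (+): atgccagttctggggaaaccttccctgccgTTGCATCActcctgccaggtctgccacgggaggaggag
Pycr1, chr11:120643814-120643881 (-): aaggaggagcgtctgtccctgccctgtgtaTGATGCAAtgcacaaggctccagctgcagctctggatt
Gars, chr6:55037941-55038000 (+): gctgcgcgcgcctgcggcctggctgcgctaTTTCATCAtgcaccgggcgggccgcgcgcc
Tars, chr15:11399659-11399684 (-): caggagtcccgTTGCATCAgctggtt
Slc7a11 and Aars had 2 matches each in their windows. In Slc7a11 there was 1 on each strand, beginning 66 and 47 bases before the start. Aars is not shown. The match in Asns began 23 bases before the start and that in Tars 15 bases before it, whereas those in Vldlr and Chac1 lay 200 and 193 bases before it (for Vldlr, before 1 of its 2 RefSeq starts). Trib3, Slc1a4, Iars and Yars carried a match at or after the start, which is not printed.

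The genes were well expressed in empty-plasmid cells. Levels were compared between genes as CPM per kilobase of the longest annotated transcript, averaged over the plasmid control libraries. On that scale Phgdh, which makes the first committed step of serine synthesis, stood highest at 406 CPM per kb, and Atf4 followed at 394. Nars, the asparaginyl-tRNA synthetase, had 353 CPM per kb, and Psat1, the next enzyme of the serine pathway, 301. At the low end were Sesn2 with 34.9 CPM per kb, Slc7a11 with 20.2, Vldlr with 15.2 and Pycr1 with 11.3. Atf4 therefore lay at percentile 99.1 of all genes with a length, and Pycr1 at percentile 53.3. Phgdh has 8 annotated near-identical copies (95.3% to 98.7% identity, none with a row), so its count is uncertain.

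**Figure D1:**
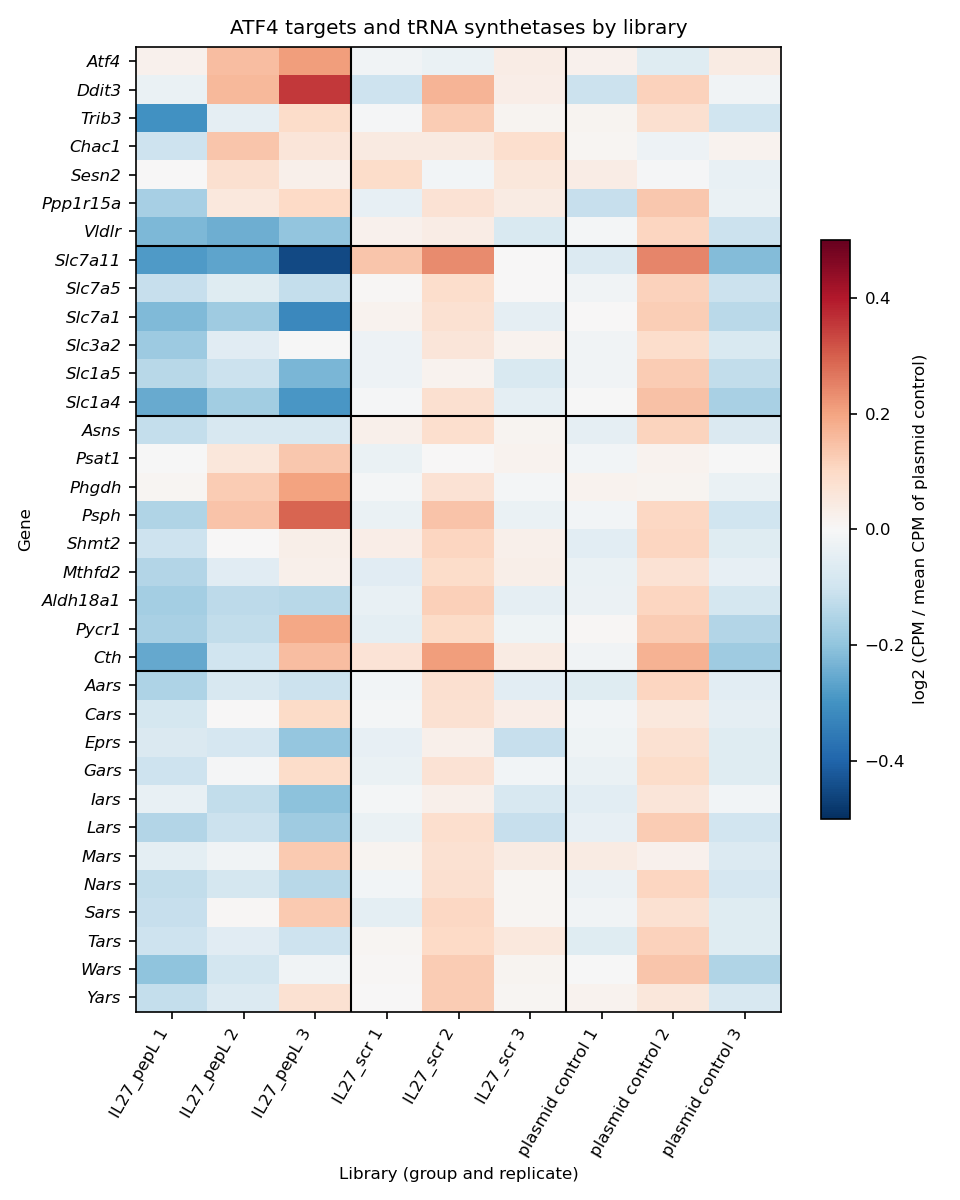
Log2 ratio of CPM in each library to the plasmid control mean (colour), for the 34 genes (rows, by role) and the 9 libraries (columns, IL27_pepL left, IL27_scr centre, plasmid control right). The 6 transporters are below the plasmid control mean across most IL27_pepL libraries, and replicate 2 of the plasmid control group is above it for most genes.

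The first question was whether cells given IL27_pepL differed from empty-plasmid cells in these genes. Transporters and Vldlr had lower values in IL27_pepL cells and Atf4 a higher one, but the differences were small and no gene passed the test. In edgeR's quasi-likelihood test, Benjamini-Hochberg adjusted over all 12125 genes, 0 of the 34 passed an adjusted p of 0.05, against 1.62% of all genes (197 genes). None was called higher or lower, where 0.429% and 1.2% of all genes were. At an unadjusted p under 0.05 there were 11 of the 34, 2 higher and 9 lower, against 23% of all genes. DESeq2 called 4 of them lower (Slc7a11, Slc7a1, Slc1a4 and Vldlr) and limma-voom called none. The log2 fold change was above 0 for 11 and below 0 for 23, with a median of -0.07 and a range of -0.33 to 0.17, while the median over all genes was 0.00. The 3 libraries of IL27_pepL cells all lay below the 3 plasmid control libraries for 10 of the 34 genes and above them for 0, where the same held for 13.4% and 10.7% of all genes.

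The transporters differed most. All 6 had a log2 fold change below 0 (median -0.20, range -0.33 to -0.08). An edgeR unadjusted p under 0.05 was reached by 4 of them, against 23% of all genes. For 3 of the 6, all IL27_pepL libraries lay below all plasmid control libraries, as they did for 13.4% of all genes. Slc7a11 encodes the cystine-glutamate exchanger xCT, which supplies cystine for glutathione. Its level was 154, 156 and 137 CPM in IL27_pepL libraries, 205, 219.8 and 187 CPM in IL27_scr libraries, and 178, 221 and 161 CPM in plasmid control libraries. Every IL27_pepL library was below every library of either other group, and the plasmid control libraries spread widest. Against plasmid control the log2 fold change was -0.33 ± 0.10 (SE, n = 3 each; edgeR adjusted p = 0.0928). Without replicate 2 of the plasmid control, the highest library, it was -0.19 (edgeR adjusted p = 0.347), and with each gene's length and GC content corrected for by an offset -0.18 (edgeR adjusted p = 0.257).

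Slc7a1, the cationic amino acid transporter CAT-1 that carries arginine and lysine, had 405, 418 and 377 CPM in IL27_pepL libraries, 477, 497 and 457 CPM in IL27_scr libraries, and 472, 514 and 429 CPM in plasmid control libraries. The IL27_pepL libraries again lay below all 6 others. The log2 fold change against plasmid control was -0.24 ± 0.06 (SE, n = 3 each; edgeR adjusted p = 0.0737), or -0.15 with the length and GC offset. Slc1a4, the neutral amino acid transporter ASCT1 for alanine, serine and cysteine, had 170.3, 179.9 and 166 CPM in IL27_pepL libraries, 202, 214 and 196 CPM in IL27_scr libraries, and 203, 224 and 182 CPM in plasmid control libraries. It too did not overlap between IL27_pepL and either other group, with a log2 fold change of -0.24 ± 0.07 against plasmid control (SE, n = 3 each; edgeR adjusted p = 0.0858). Slc1a5, the glutamine transporter ASCT2, had 122, 125 and 115 CPM in IL27_pepL libraries, 132, 136 and 128 CPM in IL27_scr libraries, and 133, 147 and 123 CPM in plasmid control libraries, a difference of -0.16 from plasmid control (edgeR adjusted p = 0.153). Its IL27_pepL libraries overlapped those of plasmid control and not those of IL27_scr. The 2 chains of the large neutral amino acid transporter differed least. Slc7a5, its light chain LAT1, differed by -0.10 (edgeR adjusted p = 0.311), and Slc3a2, the heavy chain 4F2 that also partners xCT, by -0.08 (edgeR adjusted p = 0.436).

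**Figure D2:**
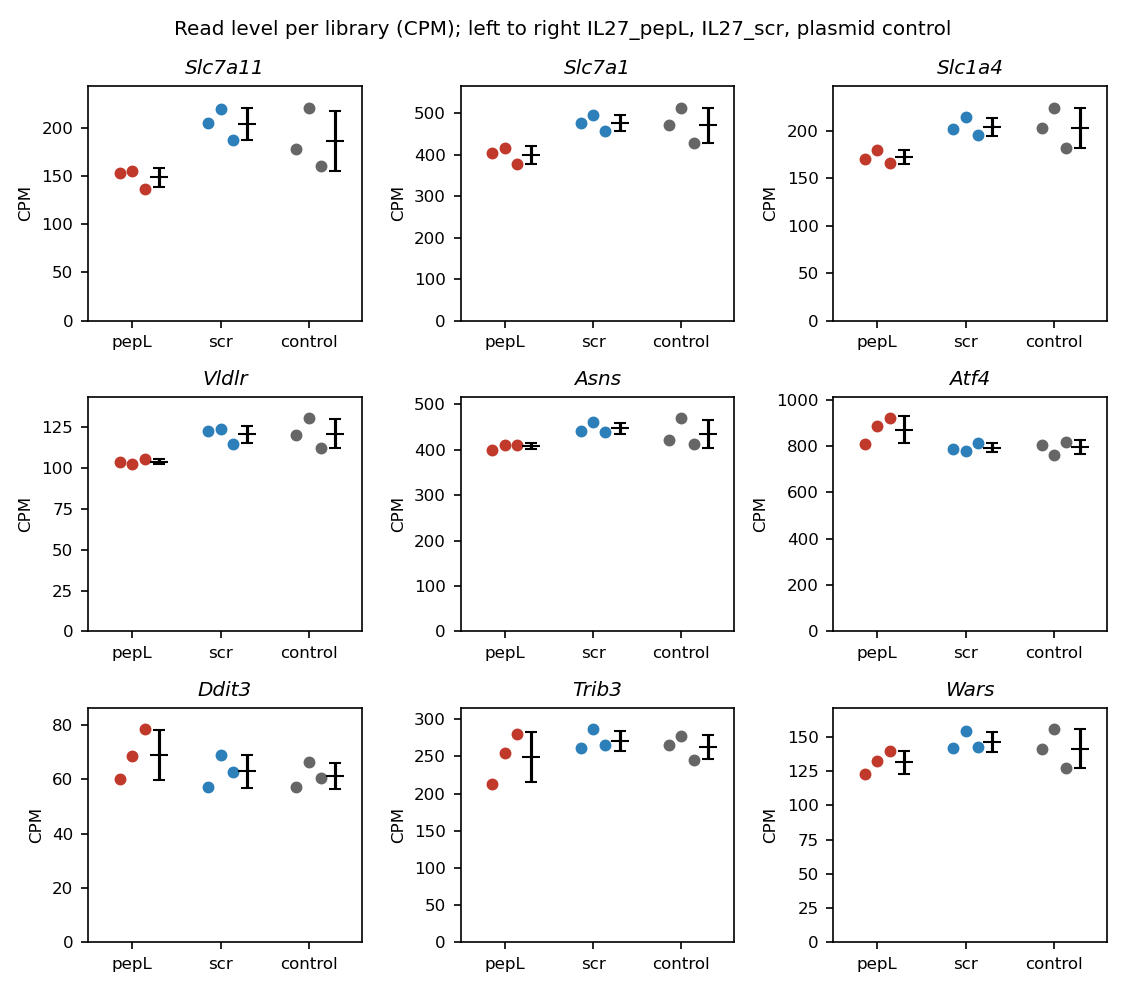
CPM in each library (points, linear axis from 0) for selected genes, with IL27_pepL left, IL27_scr centre and plasmid control right; the horizontal mark beside them is the group mean and the bar its SD (n = 3). Slc7a11, Slc7a1, Slc1a4 and Vldlr are lower in all 3 IL27_pepL libraries than in any other library, whereas Atf4 and Ddit3 overlap between groups.

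Among the regulators, Atf4 itself had 808, 886 and 919 CPM in IL27_pepL libraries, 787, 778 and 815 CPM in IL27_scr libraries, and 807, 762 and 817 CPM in plasmid control libraries. Replicates 2 and 3 of IL27_pepL were above all 6 other libraries and replicate 1 was among them. The log2 fold change against plasmid control was 0.13 ± 0.05 (SE, n = 3 each; 95% interval 0.01 to 0.25; edgeR adjusted p = 0.172). Ddit3, which encodes the stress-induced factor CHOP, had 59.9, 68.6 and 78.3 CPM in IL27_pepL libraries, 57.0, 68.9 and 62.7 CPM in IL27_scr libraries, and 57.0, 66.3 and 60.6 CPM in plasmid control libraries. It differed by 0.17 ± 0.09 against plasmid control (SE, n = 3 each; edgeR adjusted p = 0.298), with overlapping libraries. Its exons overlap those of Mars by 68 bases on the opposite strand, and whether the counting used strand is not given in the sources used here.

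Ribosomal protein genes named Rpl or Rps were taken where their mean CPM was above a cut-off, which left 73. By median they were, like Atf4 and Ddit3, lowest in replicate 1 and highest in replicate 3 of IL27_pepL. Their median log2 deviation from the plasmid control mean was 0.03, 0.30 and 0.43 in IL27_pepL libraries, -0.15, 0.09 and 0.03 in IL27_scr libraries, and -0.01, -0.05 and 0.06 in plasmid control libraries. With the length and GC offset the log2 fold change against plasmid control was 0.05 for Atf4 (edgeR adjusted p = 0.531) and 0.01 for Ddit3 (edgeR adjusted p = 0.963). Without replicate 1 of IL27_pepL it was 0.19 for Atf4 (edgeR adjusted p = 0.0198) and 0.27 for Ddit3 (edgeR adjusted p = 0.0403). The part of ribosomal protein mRNA in these values was not tested.

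Other regulators and effectors differed by less, apart from Vldlr. Trib3, a pseudokinase that restrains ATF4 and AKT, had 213, 254 and 279 CPM in IL27_pepL libraries, 261, 286 and 265 CPM in IL27_scr libraries, and 265, 277 and 245 CPM in plasmid control libraries, with overlap throughout. It differed by -0.08 against plasmid control (95% interval -0.25 to 0.10; edgeR adjusted p = 0.602). Chac1, which degrades glutathione, differed by 0.04 (edgeR adjusted p = 0.739) and Sesn2, a leucine-sensing brake on mTORC1, by 0.04 (edgeR adjusted p = 0.675). Ppp1r15a, the stress-induced subunit GADD34 that removes the phosphate from eIF2 alpha, differed by 0.00 (95% interval -0.16 to 0.16). Vldlr, the very low density lipoprotein receptor, had 104, 102 and 106 CPM in IL27_pepL libraries, 123, 124 and 115 CPM in IL27_scr libraries, and 120.4, 130.4 and 112 CPM in plasmid control libraries. It was below both other groups in every IL27_pepL library, with a log2 fold change of -0.22 ± 0.06 against plasmid control (SE, n = 3 each; edgeR adjusted p = 0.064), or -0.10 with the length and GC offset (edgeR adjusted p = 0.381).

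Of the 9 synthesis enzymes, 3 were above 0 and 6 below against plasmid control (median -0.02), and the 3 above were the serine pathway enzymes in sequence. Phgdh had 775, 839 and 884 CPM in IL27_pepL libraries, 762, 807 and 763 CPM in IL27_scr libraries, and 777, 776 and 752 CPM in plasmid control libraries. It differed by 0.12 (95% interval 0.00 to 0.23; edgeR adjusted p = 0.215), Psat1 by 0.06 (edgeR adjusted p = 0.418), and Psph, the phosphatase that releases serine, by 0.11 (edgeR adjusted p = 0.519). Psph exons overlap those of Cct6a by 452 bases on the opposite strand, 10.4% of its exon bases. For these 3 the groups overlapped, and like Atf4 they were lowest in replicate 1 and highest in replicate 3 of IL27_pepL. This order was not particular to them. Replicate 1 was the lowest of that group for 24 of the 34 genes, against 37.3% of all genes. Replicate 3 was the highest for 20 of the 34, against 40.6% of all genes. Asns, asparagine synthetase, had 399, 411 and 411 CPM in IL27_pepL libraries, 441, 460.4 and 439 CPM in IL27_scr libraries, and 421, 468 and 412 CPM in plasmid control libraries. All IL27_pepL values were below all others by a narrow margin, with a log2 fold change of -0.09 ± 0.05 against plasmid control (SE, n = 3 each; edgeR adjusted p = 0.302). Aldh18a1, which starts proline synthesis, had 346, 357 and 354 CPM in IL27_pepL libraries, 380.0, 423 and 379 CPM in IL27_scr libraries, and 383, 421 and 367 CPM in plasmid control libraries. It differed from plasmid control by -0.15 (edgeR adjusted p = 0.16), also without overlap. Shmt2 and Mthfd2, which run mitochondrial one-carbon metabolism, differed by -0.02 and -0.06, Pycr1, the last step of proline synthesis, by -0.02, and Cth, which makes cysteine from cystathionine, by -0.06.

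**Figure D3:**
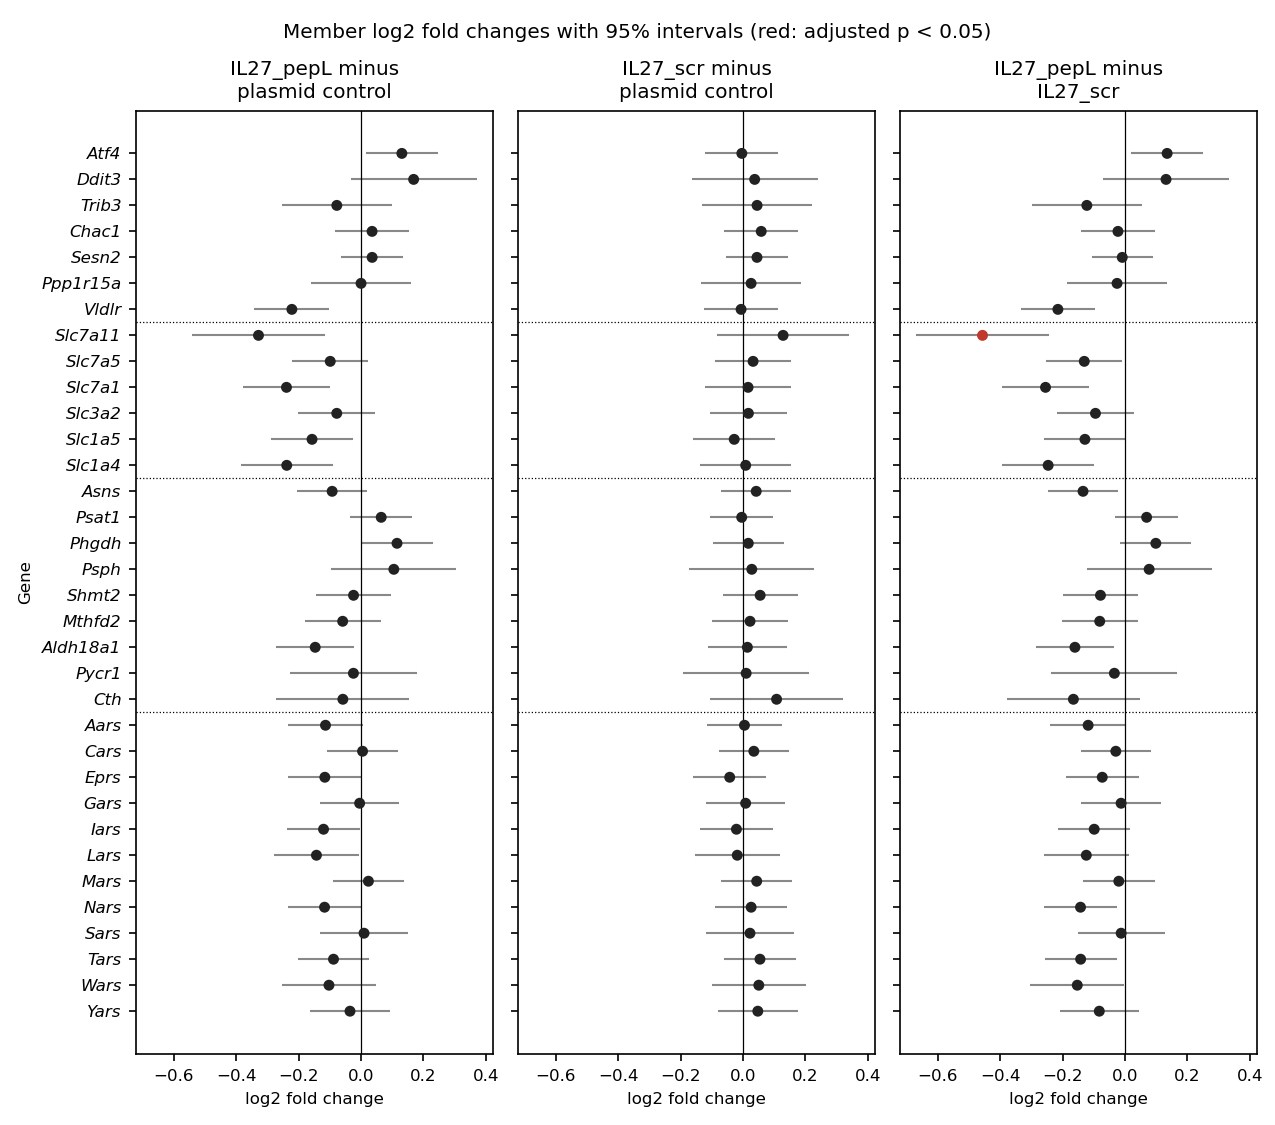
Log2 fold change (points, red where the adjusted p passed) with 95% interval (bars) of each of the 34 genes in IL27_pepL minus plasmid control (left), IL27_scr minus plasmid control (centre) and IL27_pepL minus IL27_scr (right). Intervals of IL27_scr minus plasmid control span 0 throughout, and Slc7a11 lies lowest in the other panels, at -0.33 and -0.46.

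The 12 cytosolic aminoacyl-tRNA synthetases, which load amino acids onto tRNA, lay within a narrow band against plasmid control (median -0.10, range -0.14 to 0.02). Of these, 3 were above 0 and 9 below. An edgeR unadjusted p under 0.05 was reached by 3 of the 12, all lower, against 23% of all genes in either direction. For Aars, Eprs, Lars and Nars all IL27_pepL libraries were below all plasmid control libraries, as they were for 13.4% of all genes. Nars had 889, 912 and 881 CPM in IL27_pepL libraries, 960.4, 1024 and 976 CPM in IL27_scr libraries, and 949, 1043 and 915 CPM in plasmid control libraries, a log2 fold change of -0.12 against plasmid control (edgeR adjusted p = 0.215). Lars differed by -0.14 (edgeR adjusted p = 0.2003), Iars by -0.12 (edgeR adjusted p = 0.206), and Aars by -0.11 (edgeR adjusted p = 0.242). Part of the Aars exons, 1326 bases, overlaps Exosc6 on the same strand. Iars is near-identical to Gm4849, which has no row, over 1656 bases (96.0% identity). Its count is uncertain to the extent that reads were shared. Sars, Cars, Mars and Gars differed by 0.01, 0.01, 0.02 and 0.00.

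The second question was whether the pepL peptide made a difference beyond interleukin-27 with the non-specific peptide. Slc7a11 fell in IL27_pepL cells to 0.728 of its level in IL27_scr cells, and it was the only 1 of the 34 genes that passed, against 2.52% of all genes (306 genes), 1.09% higher and 1.44% lower. The libraries pool all cells of a well, so fewer cells expressing a gene and less of its RNA per cell cannot be told apart. The means were 149 ± 10.3 CPM in IL27_pepL cells and 204 ± 16.4 CPM in IL27_scr cells (SD, n = 3 each), and the log2 fold change was -0.46 ± 0.10 (SE; 95% interval -0.67 to -0.25; edgeR adjusted p = 0.0275). Its gene lies on chromosome 3 at 49892526 to 50443614 on the minus strand (GRCm38/mm10), downstream of the stretch with 2 matches printed above. DESeq2 and limma-voom also called it (adjusted p = 7.07e-04 and 0.0293), and with the length and GC offset it differed by -0.34 (edgeR adjusted p = 0.0411). The call was lost without IL27_scr replicate 1, 2 or 3 (edgeR adjusted p = 0.101, 0.127 and 0.0546) and without IL27_pepL replicate 2 or 3 (edgeR adjusted p = 0.076 and 0.0533), at log2 fold changes of -0.52 to -0.40. Part of its longest transcript is near-identical to 9 other annotated genes (95.2% to 96.5% identity). Those with a row are the tubulin genes Tuba1a, Tuba1b and Tuba1c, each over 373 bases. The Slc7a11 count is therefore uncertain to the extent that reads were shared.

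Of the 34 genes, 5 were above 0 and 29 below in IL27_pepL minus IL27_scr (median -0.09). Over all genes 6201 were above 0 and 5924 below (median 0.00). Further transporters had lower values in IL27_pepL cells without passing. All 6 were below 0 (median -0.19), and for 5 of the 6, all but Slc3a2, the IL27_pepL libraries lay below all IL27_scr libraries, as they did for 12 of the 34 genes and for 14.3% of all genes. Slc7a1 differed by -0.26 ± 0.06 (SE, n = 3 each; edgeR adjusted p = 0.0559) and Slc1a4 by -0.25 ± 0.07 (edgeR adjusted p = 0.0697). Vldlr differed by -0.22 ± 0.06 (SE, n = 3 each; edgeR adjusted p = 0.0584), or -0.12 with the length and GC offset (edgeR adjusted p = 0.263). DESeq2 called these 3 lower as well, and limma-voom called none of them. Slc7a5 and Slc1a5 each differed by -0.13 (edgeR adjusted p = 0.184 and 0.224).

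The synthetases had a median of -0.09 against IL27_scr, with 12 of 12 below 0 and a range of -0.15 to -0.01. None passed, and 3 had an unadjusted p under 0.05 (as did 11 of the 34 genes and 23.3% of all genes). Aars, Nars, Tars and Wars did not overlap, lying below IL27_scr as 14.3% of all genes did. Wars, the tryptophanyl-tRNA synthetase, which interferon also induces, had 123, 132 and 139 CPM in IL27_pepL libraries, 142, 154 and 143 CPM in IL27_scr libraries, and 141, 155 and 127 CPM in plasmid control libraries. It was lower in every IL27_pepL library than in any IL27_scr library, with a log2 fold change of -0.15 (95% interval -0.30 to -0.00; edgeR adjusted p = 0.209). Tars, the threonyl-tRNA synthetase, had 471, 486 and 471 CPM in IL27_pepL libraries, 510.0, 542 and 525 CPM in IL27_scr libraries, and 485, 548 and 485 CPM in plasmid control libraries. It differed by -0.14 against IL27_scr (edgeR adjusted p = 0.136), also without overlap. Of the synthesis enzymes 6 of 9 were below 0 (median -0.08). Aldh18a1 differed by -0.16 (edgeR adjusted p = 0.127) and Asns by -0.13 (edgeR adjusted p = 0.143), both without overlap. Cth, at 180.1, 201 and 239 CPM in IL27_pepL libraries and 225, 249 and 221 CPM in IL27_scr libraries, differed by -0.17 with overlap (edgeR adjusted p = 0.331). Of the regulators 5 of 7 were below 0 (median -0.02), with Atf4 at 0.13 (edgeR adjusted p = 0.157), Ddit3 at 0.13 (edgeR adjusted p = 0.418; -0.02 with the length and GC offset) and Trib3 at -0.12 (edgeR adjusted p = 0.389).

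The third comparison asked whether interleukin-27 with the non-specific peptide differed from empty plasmid. None of the 34 genes passed edgeR's test, against 0.0247% of all genes (3 genes; 0.0165% higher and 0.00825% lower). None reached an unadjusted p under 0.05, against 2.57% of all genes, and DESeq2 and limma-voom called 0. The log2 fold change was above 0 for 27 and below 0 for 7, between -0.04 and 0.13 with a median of 0.02. Over all genes it was above 0 for 5874 and below 0 for 6251, with a median of -0.00. Slc7a11 had the largest difference, 0.13 (95% interval -0.08 to 0.34), with overlapping libraries. Atf4 differed by 0.00 (95% interval -0.12 to 0.11). Chac1 was the only gene without overlap between these groups, at 266, 266 and 274 CPM in IL27_scr libraries and 260.0, 253 and 261 CPM in plasmid control libraries, a difference of 0.06 (95% interval -0.06 to 0.18). Such a full separation occurred upwards for 4.75% and downwards for 5.25% of all genes. Shmt2 had 518, 544 and 514 CPM in IL27_scr libraries and 487, 545 and 485 CPM in plasmid control libraries, a difference of 0.05 (95% interval -0.07 to 0.18). Eprs, the synthetase for glutamate and proline, had 436, 457 and 415 CPM in IL27_scr libraries and 442, 474 and 431 CPM in plasmid control libraries, a difference of -0.04. Both overlapped. Cth differed by 0.11 (95% interval -0.11 to 0.32), Tars by 0.05 and Slc1a5 by -0.03, also with overlap. The comparisons share libraries, so their values for a gene are not independent.

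Replicates of a group also differed together in these genes. Replicate 2 was the highest plasmid control library for 29 of the 34 genes (85.3%), against 36.2% of all genes, and the exceptions were Atf4, Chac1, Sesn2, Phgdh and Mars. Within IL27_scr, replicate 2 was the highest for 30 of 34 (88.2%), against 32.4% of all genes, and the exceptions were Atf4, Chac1, Sesn2 and Psat1. Within IL27_pepL, replicate 1 was the lowest for 24 of 34 (70.6%), against 37.3% of all genes. By role, the transporters' median log2 deviation from the plasmid control mean was -0.20, -0.14 and -0.26 in IL27_pepL libraries, 0.00, 0.08 and -0.02 in IL27_scr libraries, and -0.01, 0.13 and -0.13 in plasmid control libraries. The synthetases' medians were -0.11, -0.07 and -0.06 in IL27_pepL libraries, -0.01, 0.08 and 0.01 in IL27_scr libraries, and -0.02, 0.09 and -0.06 in plasmid control libraries. The transporters' 3 IL27_pepL medians thus lay below all others, closest to plasmid control replicate 3, whereas those of the synthetases reached the level of plasmid control replicate 3. Without plasmid control replicate 2 the median of the 34 genes in IL27_pepL minus plasmid control was -0.02 in place of -0.07, and without IL27_pepL replicate 1 it was 0.00.

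**Figure D4:**
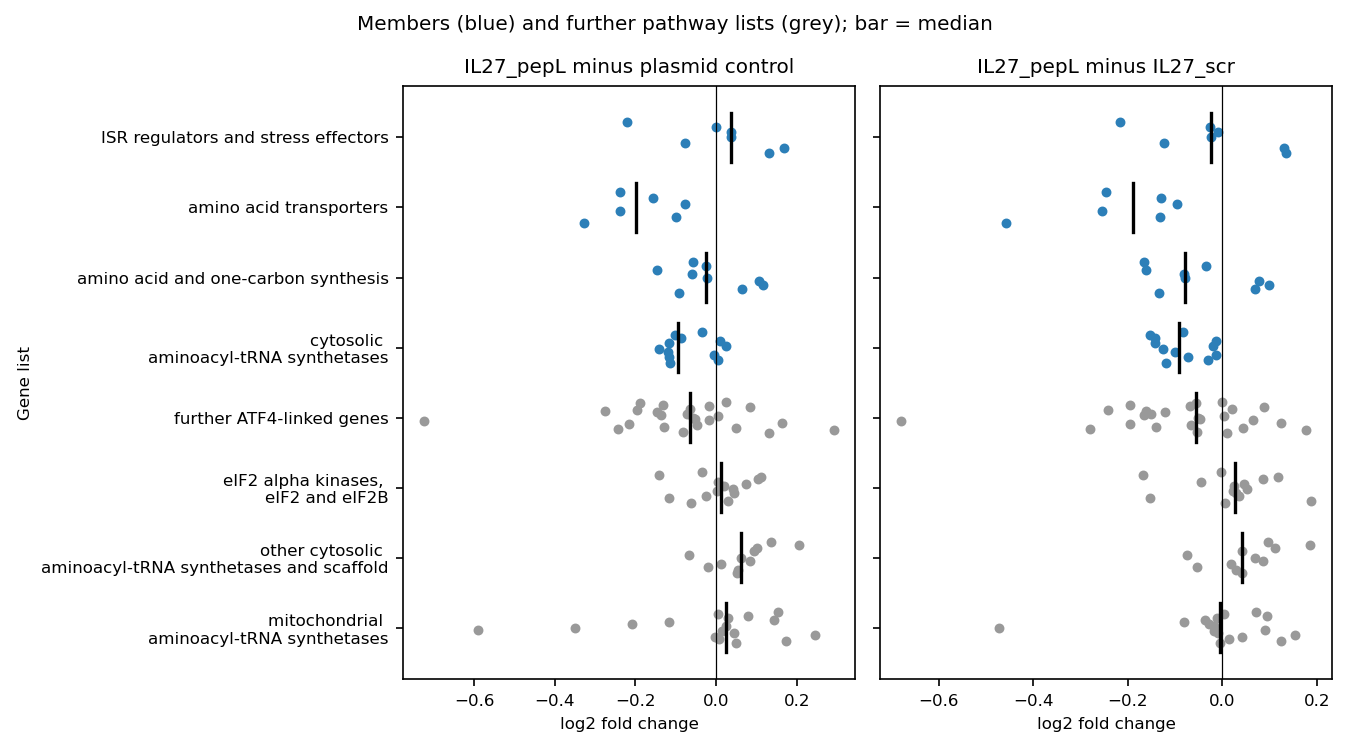
Log2 fold changes (x axis) of the genes in each list (points; the 34 genes in blue by role, further pathway lists in grey) with the list median (vertical bar), in IL27_pepL minus plasmid control (left) and IL27_pepL minus IL27_scr (right). The transporters have medians of -0.20 and -0.19. Medians of the further synthetase and eIF2 lists lie between -0.00 and 0.06, and the mitochondrial list reaches down to -0.59 (left) and -0.47 (right).

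Further genes of the pathway were read from lists of the same kind. Of 25 further ATF4-linked genes, 0 passed in IL27_pepL minus plasmid control (7 above 0, 18 below, median -0.07) and 0 in IL27_pepL minus IL27_scr (8 above, 17 below, median -0.05). Slc38a2, the glutamine transporter SNAT2, differed by -0.28 against plasmid control (edgeR adjusted p = 0.105), Ddit4, an mTORC1 inhibitor, by -0.22 (edgeR adjusted p = 0.0752), and Cebpg, a dimer partner of ATF4, by -0.28 against IL27_scr (edgeR adjusted p = 0.0806). The lowest point of that list, Gdf15, a stress-induced cytokine named after its values were seen, was near the detection limit at 0.497 to 0.983 CPM in IL27_pepL libraries, 0.903 to 1.55 CPM in IL27_scr libraries and 0.729 to 2.21 CPM in plasmid control libraries, and did not pass (edgeR adjusted p = 0.294 against plasmid control). Upstream, 0 of 14 genes for the eIF2 alpha kinases, eIF2, eIF2B and their regulators passed in either comparison (medians 0.01 and 0.03). Ppp1r15b, the constitutive partner of the eIF2 alpha phosphatase, differed by -0.14 against plasmid control (edgeR adjusted p = 0.0987) and -0.17 against IL27_scr (edgeR adjusted p = 0.0628). Eif2ak2, the double-stranded RNA kinase PKR, differed by 0.19 against IL27_scr (edgeR adjusted p = 0.197).

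The remaining cytosolic synthetases with their scaffold proteins, 11 genes, had medians on the other side of 0 from those of the 12 above. In IL27_pepL minus plasmid control 9 were above 0 and 2 below (median 0.06). The counts were the same in IL27_pepL minus IL27_scr (median 0.04), with 0 of them called. Aimp2, a scaffold protein of the multi-synthetase complex, had 73.9, 82.8 and 94.6 CPM in IL27_pepL libraries, 73.7, 73.2 and 74.0 CPM in IL27_scr libraries, and 72.1, 71.9 and 73.7 CPM in plasmid control libraries, a difference of 0.21 against plasmid control (edgeR adjusted p = 0.118) that came from replicates 2 and 3 of IL27_pepL. Of 17 mitochondrial synthetases, 1 was called lower in each comparison of IL27_pepL, where 1.2% of all genes were against plasmid control and 1.44% against IL27_scr. Mars2, the mitochondrial methionyl-tRNA synthetase, had 11.2, 12.5 and 13.0 CPM in IL27_pepL libraries, 16.4, 17.2 and 17.2 CPM in IL27_scr libraries, and 16.0, 15.6 and 15.2 CPM in plasmid control libraries. The 3 IL27_pepL libraries were below all others. Mars2 fell in IL27_pepL cells by 0.35 on the log2 scale against plasmid control (edgeR adjusted p = 0.0334) and by 0.47 against IL27_scr (edgeR adjusted p = 0.00593). Lars2, the mitochondrial leucyl-tRNA synthetase, had 148, 203 and 191 CPM in IL27_pepL libraries, 142, 162 and 205 CPM in IL27_scr libraries, and 324, 234 and 258 CPM in plasmid control libraries. It was lower in all libraries of the interleukin-27 groups, as the Rn45s share was, and the part of ribosomal RNA reads in this count was not tested.

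Slc7a11 is also a target of the oxidative stress factor NRF2, and of 9 other NRF2 targets 0 passed in IL27_pepL minus plasmid control (7 above 0, 2 below, median 0.04) or in IL27_pepL minus IL27_scr (5 above, 4 below, median 0.04). Gclm, the modifier subunit of the ligase that joins glutamate and cysteine for glutathione, differed by 0.18 against plasmid control (edgeR adjusted p = 0.0883) and 0.16 against IL27_scr (edgeR adjusted p = 0.105), while its catalytic subunit Gclc differed by -0.01 and -0.00. Interferon-stimulated genes, which interferon and interleukin-27 induce, were set beside Wars. Of 12, 4 rose in IL27_pepL cells against plasmid control (0.429% of all genes were called higher) and 9 against IL27_scr (1.09% of all genes), with medians of 0.34 and 0.58. In IL27_scr minus plasmid control, 0 of the 12 passed and all 12 were below 0 (median -0.17, 4 at an unadjusted p under 0.05), so the values against IL27_scr start from a lower level than those against plasmid control. Irf7, an interferon regulatory factor, differed by 0.66 (edgeR adjusted p = 0.0199) and 1.07 (edgeR adjusted p = 0.00139) in those comparisons.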

How the data were processed

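Gene-level read counts of 9 libraries (3 groups of 3) were used as deposited, in whole numbers and not normalized. Per the submitters' processing notes, the tools were FastQC, STAR (printed beside version 1.5.1), featureCounts of Subread 1.6.1 and edgeR 3.22.5, with the mm10 build. Gene annotation, strand and multi-mapping are settings not given in the sources used here. Groups and columns were matched through the sample labels.

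From the counts, TMM-scaled CPM, log2 fold changes with SE, and tests were computed with edgeR 4.0.16 (R 4.3.3; quasi-likelihood, all 9 libraries in 1 fit, filterByExpr, which removed 0 genes), with Benjamini-Hochberg adjustment over 12125 genes and a threshold of 0.05. The common biological coefficient of variation was 5.76%. Alternatives were DESeq2 1.42.0, limma-voom (limma 3.58.1), RLE scaling, no filter, a filter of 1 CPM in 3 libraries (633 genes removed), 2 groups per fit, a replicate block, a length and GC offset (known for 96.4% of genes), and each library left out in turn. Scripts were tested on simulated data. Lengths and overlaps come from GENCODE vM21 (GRCm38), promoters from RefSeq (GRCm38.p6).

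The members and lists were chosen with earlier results of these data known. Members given in full were those called, the 5 with the smallest unadjusted p, and the 2 highest and 2 lowest log2 fold changes in each comparison, with Atf4, Ddit3, Trib3, Asns, Slc7a11 and Wars; from each further list, genes called (up to 4) or otherwise the 2 with the smallest p were eligible, and other members are named with their values by role. An added gene of the cell line is not reported here.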

Additional observations from a re-analysis of the deposited data

Results flagged for a closer look

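Slc7a11 was the only one of the 34 genes whose level in IL27_pepL cells differed from that in IL27_scr cells by edgeR's test, with a log2 fold change of -0.46 (edgeR adjusted p = 0.0275), where 2.52% of all genes passed. The call was lost when IL27_scr replicate 1, 2 or 3 or IL27_pepL replicate 2 or 3 was left out (edgeR adjusted p = 0.0533 to 0.127). This is a direct test between the 2 interleukin-27 plasmids. Against empty plasmid, Slc7a11 differed by -0.33 for IL27_pepL and by 0.13 for IL27_scr without passing in either case. All 3 IL27_pepL libraries (137 to 156 CPM) lay below all 3 IL27_scr libraries (187 to 219.8 CPM).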

How the results depend on the processing

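Leaving out 1 library, the 34 genes' median ranged from -0.11 to 0.00 in IL27_pepL minus plasmid control, -0.11 to -0.04 in IL27_pepL minus IL27_scr and -0.01 to 0.07 in IL27_scr minus plasmid control, and counts of calls moved. In IL27_pepL minus plasmid control, 197 genes were called; DESeq2 gave 774 (4 of the 34 lower), fitting 2 groups alone 48, and leaving out 1 library 36 to 2084 (0 to 4 of the 34 higher and 0 to 4 lower). In IL27_pepL minus IL27_scr, 306 genes were called; DESeq2 gave 811 (4 of the 34 lower), 2 groups alone 165, and leaving out 1 library 69 to 1782 (0 to 2 of the 34 higher and 0 to 4 lower). Leaving out plasmid control replicate 1, 2 or 3 gave 55, 36 or 38 calls in IL27_pepL minus plasmid control, IL27_scr replicate 2 or 3 gave 127 or 110, and IL27_pepL replicate 2 gave 55. In IL27_pepL minus IL27_scr, plasmid control replicate 1 left out gave 197, IL27_scr replicate 1, 2 or 3 gave 72, 69 or 94, and IL27_pepL replicate 2 gave 89. The highest counts came without IL27_pepL replicate 1, where Atf4, Ddit3, Phgdh and Psph passed as higher against plasmid control and Slc7a11, Slc7a1, Slc1a4 and Vldlr as lower. The cause was not tested. IL27_scr minus plasmid control gave 3 calls, or 4 with DESeq2.

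The labels do not say whether replicate numbers pair the samples. Over all genes, same-numbered deviations correlated at 0.04, 0.16 and -0.06 in IL27_pepL with plasmid control. The values were 0.31, 0.10 and 0.09 in IL27_pepL with IL27_scr, and 0.09, 0.20 and 0.06 in IL27_scr with plasmid control. These correlations do not settle whether a replicate number stands for a shared effect. With a replicate block the counts were 1019 in IL27_pepL minus plasmid control (5 of the 34 lower: Slc7a11, Slc7a1, Slc1a4, Slc1a5 and Vldlr) and 1110 in IL27_pepL minus IL27_scr (5 lower: Slc7a11, Slc7a1, Slc1a4, Vldlr and Aldh18a1). For named members, 781 values kept their side of the threshold, 30 passed newly and 5 no longer passed. Reversals of direction were counted only where either fit passed, and there were 0. A value that changed direction without passing in either fit, or had no adjusted p, is among the 781. Each group had 3 libraries, the common biological coefficient of variation was 5.76%, and every member had over 800 reads in every library. How far each of these limits the calling of differences near 0.1 on the log2 scale was not tested.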

Other observations

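The 27 genes with a promoter entry were also described by whether the window held TGATGNAA. In IL27_pepL minus IL27_scr, the 12 with a match were all below 0 (median -0.12, range -0.46 to -0.01), and of the 15 without, 5 were above and 10 below (median -0.02). In IL27_pepL minus plasmid control, 1 of the 12 was above 0 and 11 below (median -0.09), and of the 15 without, 9 were above and 6 below (median 0.01). In IL27_scr minus plasmid control, 10 of the 12 were above 0 (median 0.03), and 12 of the 15 (median 0.02). This split was made on genes listed with these data known and is a description with no test.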
